A study of Rattus norvegicus with 4 samples.

Results

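Glycolysis turns glucose into pyruvate, glycogen is the store of glucose that a working muscle fibre draws on, and pyruvate is either reduced to lactate or passed to the mitochondria. The 36 genes described here encode the enzymes of these routes and the kinases that control the entry of pyruvate into the mitochondria. They were taken from a list of gene symbols. For 34 of the 36, a probe set (a group of array probes against one transcript) carried that symbol alone, and each gene was read from its probe set with the highest mean over the arrays. The probe set of Pkm, the muscle pyruvate kinase, also carries the symbol of a pseudogene, and Dlat, a subunit of the pyruvate dehydrogenase complex, was matched by no probe set, so neither has a value here. The array as a whole gave 14218 genes, of which 10092 were above the floor described below on at least 1 array and were compared.

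The study used rats of the strain F344/DuCrlCrlj as a model of intermittent claudication, in which too little blood reaches a working limb. Skeletal muscle RNA was hybridised to 4 arrays, 1 for each group. The groups are named sham, ischemia, ischemia + ES and ischemia + exercise, where ES is electrical stimulation that makes the muscle contract through its nerve, and the labels describe the sham group no further. The sources used here do not give the rats' age, which muscle was taken, how many animals stand behind an array, or when and for how long they were stimulated or exercised. The design text asks how each treatment alters expression relative to untreated ischemia. Since each group has a single array, the differences below could not be set against a spread between replicates, and no p-values are given.

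Fast muscle fibres are rich in glycolytic enzymes and in glycogen phosphorylase, whereas slow, oxidative fibres burn fat and lactate. Many steps have several genes, one for the muscle or fast-fibre form of the enzyme and one for a widely expressed or heart-type form. Glycogen phosphorylase is switched on by phosphorylase kinase when a fibre contracts, and the pyruvate dehydrogenase kinases shut off the pyruvate dehydrogenase complex when fat is burned in place of glucose.

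Values are MAS5 signals, a linear brightness per probe set, and each array had been scaled to the same trimmed mean. Signals under 30.1, the median of all values, were set to that floor before ratios were taken, and 2 arrays were taken to differ in a gene from a ratio of 2-fold upward. The arrays were alike in median signal, between 29.0 and 31.8, and 49.3% to 51.1% of the probe sets of each were above the floor. Of the 10 fast-fibre markers 9 were measured, and all 9 were above the floor on every array, with summed signals between 92200.3 and 97153. The signal of the 3′ probe set of Gapdh over that of its 5′ set, which grows as RNA breaks down, was 1.16 on sham, 1.04 on ischemia, 1.26 on ischemia + ES and 1.16 on ischemia + exercise.

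Ldhb, the heart-type lactate dehydrogenase, differed far more between the arrays than the others of these genes. Of the 30 genes above the floor on all 4 arrays, 20 (66.7%) had a highest signal less than 1.5 times their lowest, near the 70.5% of all genes above the floor on every array. The median of this ratio was 1.21 over the 30 genes and 1.33 over those 8828 genes of the whole array. It reached 2 in 3 of the 30 genes (10%), Ldhb at 4.93, Pdk4 at 2.34 and Hk1 at 2.14, against 7.42% of the 8828.

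In ischemia against sham, 1 of the 34 genes was more than 2-fold lower (Ldhb) and 0 were higher, where 0.862% of all genes compared were that much lower and 0.783% higher. In ischemia + ES against ischemia, 2 of 34 were higher (Ldhb and Gapdhs) and 0 lower, where 2.28% of all genes were higher and 0.793% lower. In ischemia + exercise against ischemia, 2 were higher (the same pair) and 1 lower (Hk1), where 1.14% of all genes were higher and 0.872% lower. These 3 comparisons all use the single ischemia array. Between the 2 treated arrays, 1 of 34 was higher with ES (Pdk3) and 0 were lower, where 2.95% of all genes were higher and 1.1% lower. Counts this small, some of them at shares near the background, describe single genes and not the set.

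The median log2 ratio of the 34 genes was -0.02 in ischemia against sham (0.00 over all genes), 0.15 in ischemia + ES against ischemia (0.05 over all genes), 0.01 in ischemia + exercise against ischemia (0.00) and 0.10 in ischemia + ES against ischemia + exercise (0.03). Under quantile normalization the median with ES against ischemia was 0.0058. The medians of ischemia against sham and of exercise against ischemia changed sign, to 0.04 and -0.04 under quantile normalization and to 0.01 and -0.02 under cyclic loess. A lower threshold of 1.5-fold was passed by 4, 6, 6 and 4 of the 34 genes in the same order. The share of all genes past that threshold was 8.14%, 14.5%, 8.26% and 15.1%, while the genes described here stood at 11.8%, 17.6%, 17.6% and 11.8%.

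**Figure D1:**
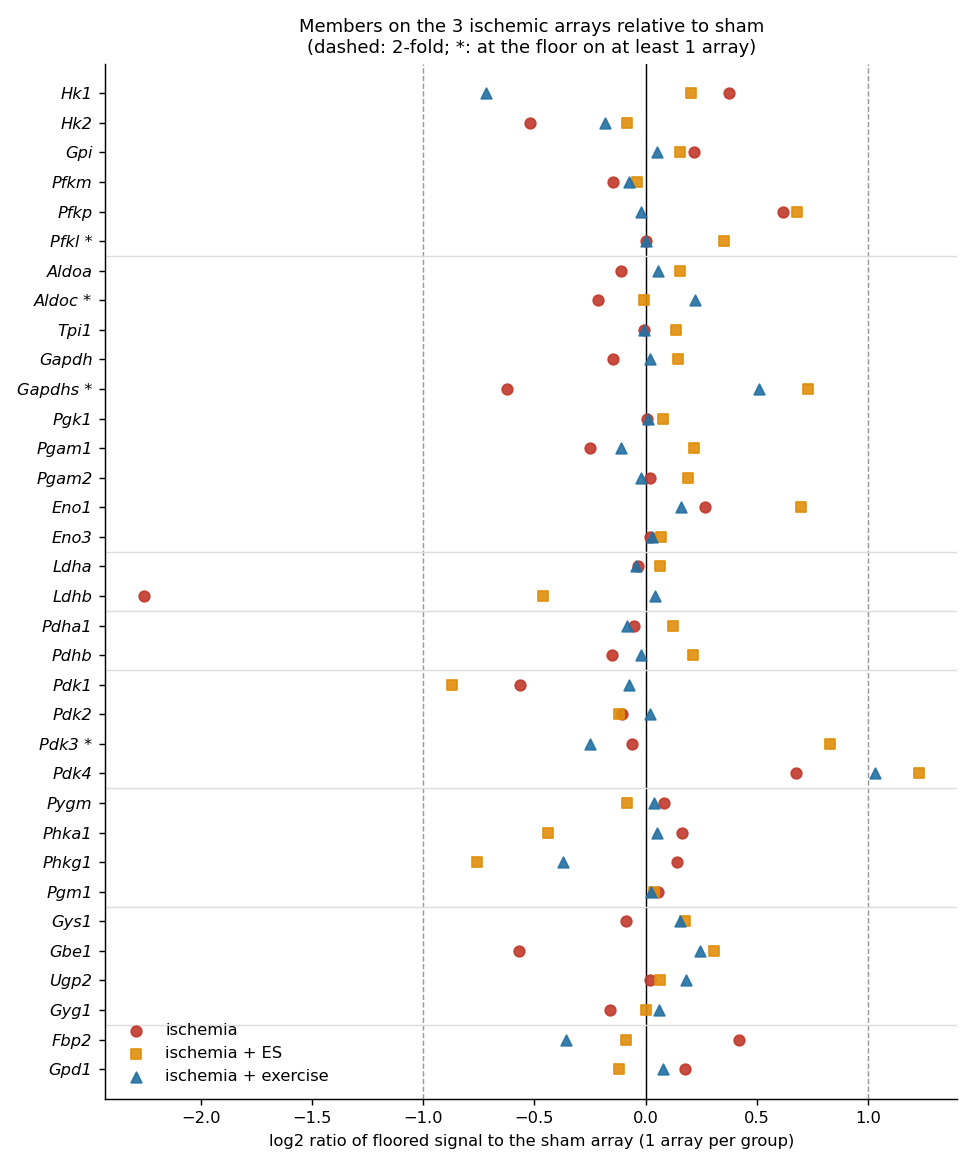
Log2 ratio of the signal on each of the 3 ischemic arrays to the sham array (x axis) for the 34 measured genes (y axis, grouped by role, with lines between groups), 1 array per group; dashed lines mark 2-fold and a star marks a gene at the floor on at least 1 array. Ldhb on the ischemia array lies alone at -2.26, Pdk4 lies to the right on all 3 arrays, and most other genes lie closer to 0.

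The size of the differences was also looked at by brightness. Of the 34, 16 had a mean signal over 4000, where the whole array had 270 genes, and 0 of these 16 passed 1.5-fold in any of the 6 pairs of arrays. Among the 270 bright genes of the array, 7.04% passed 1.5-fold in ischemia + ES against ischemia, and 2.96% passed 2-fold in ischemia against sham. The 7 genes of the set with a mean signal under 100 lie near the floor, and they gave 4 of the 7 calls past 2-fold in the 4 comparisons above. For 11 of the genes there were 14 further probe sets above the floor on every array, all dimmer than the one used. In ischemia + ES against ischemia, 9 of these 14 gave a ratio farther from 0 than the brightest probe set of the same gene, 12 had its sign, and 3 passed 2-fold (of Pygm, Phka1 and Gpd1). Over the 6 pairs of arrays, 8 to 11 of the 14 were farther from 0. Between 6 and 13 had the sign of the brightest set, fewest in ischemia + exercise against sham. Whether the brightest probe sets were near the upper limit of the scanner was not tested.

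**Figure D2:**
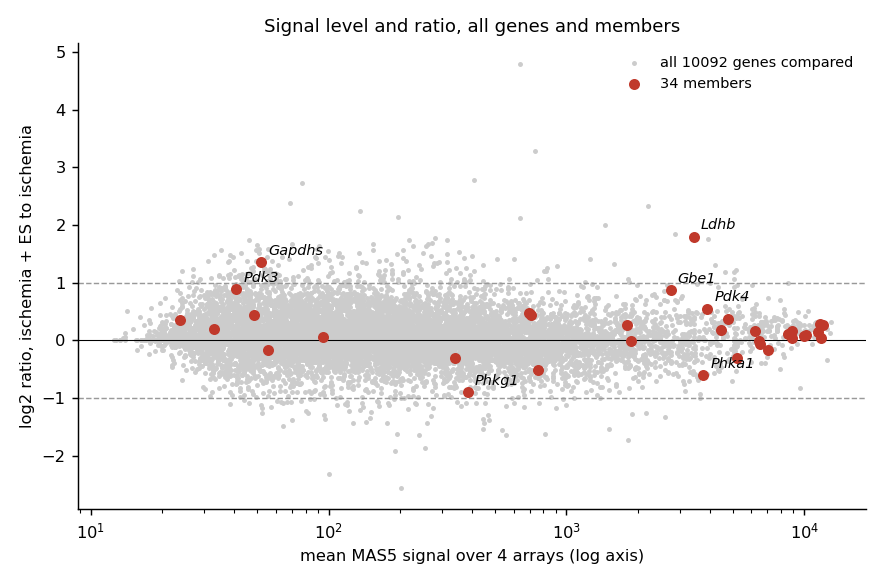
Mean MAS5 signal over the 4 arrays (x axis, log scale) against the log2 ratio of ischemia + ES to ischemia (y axis) for all 10092 genes compared (grey) and the 34 genes described here (red), with dashed lines at 2-fold. The 16 genes with a mean signal over 4000 form a narrow band between -0.30 and 0.37, and Ldhb and Gapdhs lie above the upper line.

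Lactate dehydrogenase joins pyruvate to lactate. Ldha encodes the subunit that prevails in fast muscle, and Ldhb the one that prevails in heart and slow fibres. The 2 genes parted on these arrays. Their promoter sequences are set side by side, and any bearing of the sequences on the array values was not tested. Both are RefSeq sequences of the GRCr8 build, from 250 bases before the start of the gene to 50 after it. Ldhb lies on the minus strand at chr4:177177359-177177658 and Ldha on the plus strand at chr1:106507842-106508141. Capitals mark matches on either strand to ACGTG, the core of the hypoxia-inducible factor motif, to AAGGTCA, the half-site of estrogen-related receptors, to GGGCGG, the GC box, and to TGTTTAC, a forkhead motif.
Ldhb: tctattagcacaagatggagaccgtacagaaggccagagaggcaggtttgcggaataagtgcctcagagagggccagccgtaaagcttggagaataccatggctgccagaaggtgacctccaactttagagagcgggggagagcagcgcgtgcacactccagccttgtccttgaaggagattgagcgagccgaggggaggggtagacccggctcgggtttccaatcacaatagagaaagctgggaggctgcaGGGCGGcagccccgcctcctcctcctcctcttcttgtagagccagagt
Ldha: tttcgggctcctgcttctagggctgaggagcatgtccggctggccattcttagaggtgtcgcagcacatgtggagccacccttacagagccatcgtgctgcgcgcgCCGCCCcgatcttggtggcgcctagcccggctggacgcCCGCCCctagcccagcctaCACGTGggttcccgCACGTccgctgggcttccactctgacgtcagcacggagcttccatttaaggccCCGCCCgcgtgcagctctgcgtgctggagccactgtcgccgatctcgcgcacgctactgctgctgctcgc
The Ldha window held 3 matches to ACGTG, of which a pair comes from both strands of the same CACGTG, and the Ldhb window held 0. Of 33469 promoters of this length in RefSeq, 19.3% held ACGTG, against 20 of the 37 promoters found for 33 of the 36 genes. GGGCGG was held by 33.1% of all promoters and by 22 of the 37. The 37 were also richer in G and C, at a median of 61.3% against 51.7%. AAGGTCA was in 4.61% of all promoters and in 1 of the 37 (Tpi1), and TGTTTAC in 3.78% and in 1 (Pdhb).

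The signal of Ldhb was 4615 on sham, 966 on ischemia, 3357 on ischemia + ES and 4758 on ischemia + exercise. One array, ischemia, was thus far below the other three, and ischemia + ES lay between it and the closely matched sham and ischemia + exercise arrays. Ldhb was 4.78-fold lower in ischemia than in sham, 3.48-fold higher in ischemia + ES than in ischemia and 4.93-fold higher in ischemia + exercise than in ischemia. Between ischemia + exercise and sham the ratio was 1.03. Ldha stood at 10177, 9948, 10631 and 9892 in the same order, with a highest signal 1.07 times its lowest. The log2 ratio of Ldha minus that of Ldhb was 2.22 in ischemia against sham, -1.70 in ischemia + ES against ischemia and -2.31 in ischemia + exercise against ischemia. Ldha and Ldhb each have 1 probe set on the array, so no second reading of either exists here. Whether the bright Ldha reading was near the upper limit of the scanner was not tested.

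The markers of slow fibres moved with Ldhb. All 9 slow-fibre genes listed (such as Myh7, the slow myosin heavy chain, and Tnni1, the slow troponin I) were more than 2-fold lower in ischemia than in sham. Of all genes 0.862% were that much lower, and the list was chosen with earlier results of these data known. The summed signal of the 9 was 62577 on sham, 11443 on ischemia, 23034 on ischemia + ES and 71809 on ischemia + exercise. On the ischemia array Ldhb was at 20.9% of its sham signal and the slow-fibre genes were at 10.1% to 33.2% of theirs, with a median of 15.3%. On the ischemia + ES array Ldhb was at 72.8% of sham, above 8 of the 9 slow-fibre genes, whose median was 34.9%. Casq2, the calcium store protein of slow and cardiac muscle, was the one above it, at 106% of sham. On the ischemia + exercise array Ldhb was at 103%, below all 9, which stood at 105% to 133%. The part of the slow-fibre share in the Ldhb values was not tested, and in a piece of muscle fewer slow fibres and less of a transcript per fibre cannot be told apart.

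**Figure D3:**
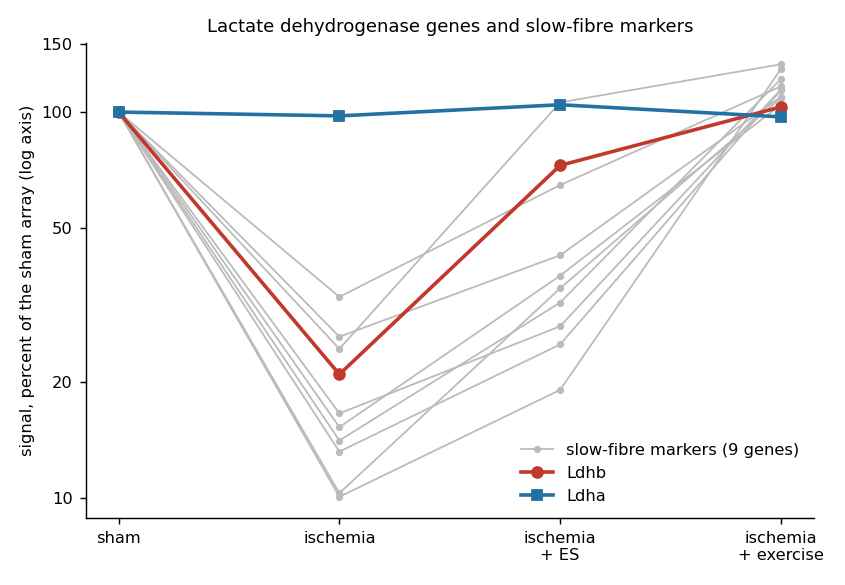
Signal as a percent of the sham array (y axis, log scale) for Ldhb (red), Ldha (blue) and 9 slow-fibre marker genes (grey) on the 4 arrays (x axis), 1 array per group; lines join the values of a gene and do not stand for a time course. Ldhb drops to 20.9% on ischemia with the markers and stands at 72.8% on ischemia + ES, above all but 1 of them. Ldha stays near 100% on its only probe set, which is bright.

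The hexokinase genes, whose enzymes trap glucose in the cell, were dim. Hk2, the muscle form that insulin and contraction are known to induce, gave signals of 55.1 on sham, 38.5 on ischemia, 52.0 on ischemia + ES and 48.6 on ischemia + exercise. It was lowest on ischemia, by 1.43-fold against sham, which is short of the threshold. Hk1, the widely expressed form, gave 54.7, 71.0, 63.0 and 33.2 in that order. It was 2.14-fold lower in ischemia + exercise than in ischemia, and its 4 other probe sets were under the floor on all arrays. These give ratios of 0 by construction, so the mean over its probe sets is no second reading of Hk1. Gpi, the isomerase of the next step, stayed within 1.16-fold over the 4 arrays, at 6046 to 7038.

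Phosphofructokinase is the main control point of glycolysis, and its muscle form Pfkm was read at 8889, 8042, 8668 and 8434 on sham, ischemia, ischemia + ES and ischemia + exercise. A dimmer probe set of Pfkm gave 2221, 2436, 1476 and 1717, and the dimmest gave 57.3, 74.8, 42.6 and 64.4. The probe sets thus disagreed: against ischemia, the ES array had a log2 ratio of 0.11 on the brightest set and of -0.72 and -0.81 on the others. Pfkp, the platelet form that many non-muscle cells express, gave 74.0, 114, 119 and 73.0. It was high on the ischemia and ischemia + ES arrays, 1.54-fold and 1.60-fold over sham, and level with sham on ischemia + exercise. The summed signal of 7 macrophage markers was 1395, 2877, 3299 and 1404 in the same order of arrays, and that of 6 fibroblast markers 13695, 24514, 21042 and 13798. Against sham, 6 of the 7 macrophage markers were above 0 in ischemia and 5 in ischemia + ES, with Cd163 lower in both. Of the 6 fibroblast markers 6 and 5 were. In ischemia + ES against ischemia both lists were split, with 3 macrophage markers above 0 and 4 below, and 3 fibroblast markers above and 3 below. The part of these cells in the Pfkp values was not tested. Pfkl, the liver form, was above the floor on ischemia + ES alone, at 38.5.

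The enzymes from aldolase to enolase carry the sugar down to phosphoenolpyruvate, and their muscle forms were among the brightest genes. Aldoa, Tpi1, Gapdh, Pgk1, Pgam2 and Eno3 had signals between 8429 and 13119, and none of them varied by more than 1.23-fold over the arrays. Aldoa, the muscle aldolase, gave 11788 on sham, 10905 on ischemia, 13119 on ischemia + ES and 12251 on ischemia + exercise, and Pgam2, the muscle phosphoglycerate mutase, gave 8557, 8685, 9760.4 and 8429. Eno3, the muscle enolase, was the steadiest of these, at 11550.3 on sham, 11716 on ischemia, 12126 on ischemia + ES and 11792 on ischemia + exercise. Gapdh, read from a control probe set at its 3′ end, gave 11617, 10499.8, 12866 and 11763. Its middle and 5′ probe sets ran only from 9503 to 10188 over the arrays, so its small differences were seen at the 3′ end.

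Eno1 and Pgam1, the widely expressed partners of Eno3 and Pgam2, varied more than those muscle forms. Eno1 gave 572 on sham, 687 on ischemia, 928 on ischemia + ES and 639 on ischemia + exercise. It was 1.62-fold higher in ischemia + ES than in sham, and the log2 ratio of Eno3 minus that of Eno1 was -0.63 in that comparison. Pgam1, the non-muscle phosphoglycerate mutase, gave 706, 593, 820 and 654, so it too was highest on ischemia + ES, at 1.38-fold over ischemia. The summed signal of 4 endothelial markers was 1297, 1333, 2907 and 1377 in the same order of arrays. Its part in the values of Eno1 and Pgam1 was not tested. All 10 genes measured in this stretch had ratios above 0 in ischemia + ES against ischemia, with a median log2 ratio of 0.24, where 56.0% of all genes were above 0 with a median of 0.05, and under quantile normalization 6 of the 10 were above and 2 below 0.

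Both remaining genes of the stretch were near the floor. Aldoc, the brain-type aldolase, gave 34.9, 22.0, 34.7 and 40.7, and its ischemia value is under the floor. Gapdhs, a form of Gapdh known from sperm, gave 46.4 on sham, 18.0 on ischemia, 76.9 on ischemia + ES and 66.1 on ischemia + exercise. The ischemia array alone lay under the floor, so Gapdhs was at least 2.55-fold higher in ischemia + ES and at least 2.20-fold higher in ischemia + exercise than in ischemia. Gapdhs has 1 probe set, so these values could not be read a second time.

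The pyruvate dehydrogenase complex turns pyruvate into acetyl-CoA in the mitochondria, and neither of its 2 measured genes among the 34 passed 1.5-fold on the probe set used. Pdha1, which encodes the subunit that the kinases phosphorylate, gave 4459, 4301, 4857 and 4203 on sham, ischemia, ischemia + ES and ischemia + exercise. Pdhb, its partner, gave 4740.4, 4268, 5504 and 4679. Both were highest on ischemia + ES, by at most 1.29-fold over ischemia. The dimmer probe set of Pdha1 gave 287, 253, 316 and 182, and was 1.74-fold higher with ES than with exercise. Pdhx, a further subunit from the pathway list, named after its values were seen, gave 985, 919.8, 1591 and 936, and was 1.73-fold higher with ES than with untreated ischemia.

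The 4 kinase genes that silence the complex did not move as one. Pdk4, the form that fasting and fat supply are known to induce in muscle, gave 2232 on sham, 3570.4 on ischemia, 5232 on ischemia + ES and 4570 on ischemia + exercise. All 3 ischemic arrays were above sham, and both treated arrays were above untreated ischemia. Pdk4 was 2.34-fold higher in ischemia + ES and 2.05-fold higher in ischemia + exercise than in sham, the one gene of the 34 past 2-fold upward in each, where 3.78% and 0.258% of all genes were. Against sham, untreated ischemia was 1.60-fold higher, and against untreated ischemia ES was 1.47-fold and exercise 1.28-fold higher, all short of the threshold. Its dimmer probe set kept the same order, at 119, 174, 225 and 218, with log2 ratios of 0.93 for ES and 0.87 for exercise against sham. With the mean of both probe sets, exercise against sham was at 0.95, just short of 2-fold. Both comparisons with sham use the same sham array. With the floor at the 30th percentile, Pfkl was past 2-fold upward in both as well, at log2 ratios of 1.80 and 1.30.

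Pdk1, the kinase known as a target of hypoxia-inducible factor, was lower than sham on untreated ischemia and on ischemia + ES, where Pdk4 was above it, and both kinases were higher with exercise than with untreated ischemia. Pdk1 gave 428 on sham, 289 on ischemia, 234 on ischemia + ES and 407 on ischemia + exercise, so that sham and exercise were high and the other 2 arrays low. The largest difference, ES against sham, was 1.83-fold lower, and the second probe set, at 304, 252, 217 and 310, showed the same order of high and low arrays. Pdk2, a widely expressed form, was nearly level at 1931, 1797, 1779.7 and 1958 on its bright probe set, while the dimmer one gave 310.1, 247, 212 and 252, lowest with ES. Pdk3 was dim, at 35.9, 34.4, 63.7 and 29.98, and with ischemia + exercise just under the floor it was at least 2.11-fold higher with ES than with exercise. Its other probe set was under the floor on all arrays and gives no second reading.

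The promoter of Pdk4, the kinase that parted most from sham, is shown as RefSeq gives it (GRCr8, minus strand, chr4:34568280-34568579). Capitals mark the same 4 motifs as above.
Pdk4: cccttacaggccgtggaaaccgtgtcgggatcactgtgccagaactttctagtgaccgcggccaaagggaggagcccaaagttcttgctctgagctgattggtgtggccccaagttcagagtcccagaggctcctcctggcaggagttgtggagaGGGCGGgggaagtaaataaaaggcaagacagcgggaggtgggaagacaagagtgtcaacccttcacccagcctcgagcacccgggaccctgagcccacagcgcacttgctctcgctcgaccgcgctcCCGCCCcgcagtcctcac
This window held GGGCGG on both strands, 1 match on each, and no match to the other 3 motifs.

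**Figure D4:**
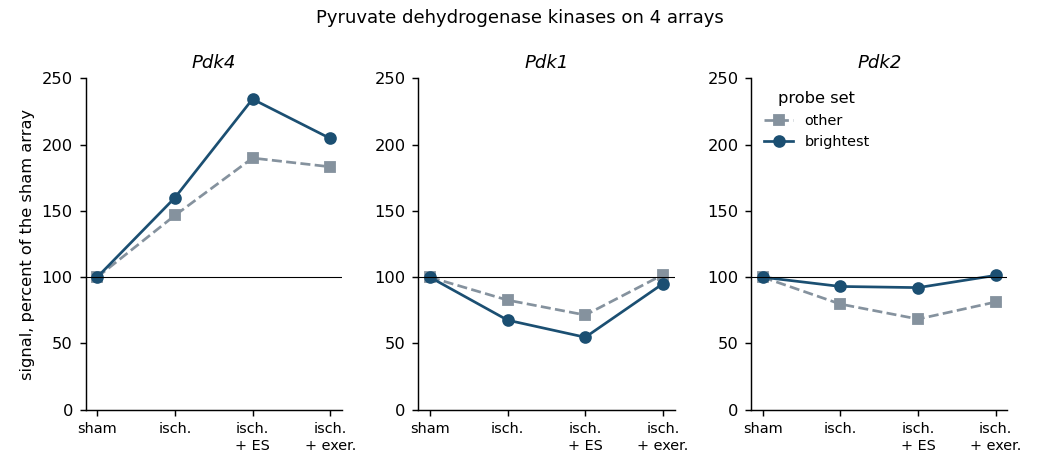
Signal as a percent of the sham array (y axis, from 0) for Pdk4, Pdk1 and Pdk2 on the 4 arrays (x axis), 1 array per group, for the brightest probe set (solid) and the other probe set (dashed); lines join the values of a probe set. Both probe sets of Pdk4 are above sham on the 3 ischemic arrays, the brighter one reaching 234% on ischemia + ES, and both of Pdk1 are lowest on ischemia + ES.

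The 4 glycogen breakdown genes of the set were lower, and its 4 synthesis genes higher, on both treated arrays than on the ischemia array, several of them only slightly. No gene of either group passed 2-fold on the probe set used. Under quantile normalization 2 of the 4 synthesis genes were below 0 with ES. Pygm, the muscle glycogen phosphorylase, frees glucose units from glycogen, Phka1 and Phkg1 encode the muscle regulatory and catalytic subunits of the kinase that activates it, and Pgm1 turns its product into the sugar of glycolysis. All 4 genes had ratios below 0 in ischemia + ES against ischemia, with a median log2 ratio of -0.38 (0.05 over all genes). All 4 were also below 0 in ischemia + exercise against ischemia, with a median of -0.08 (0.00 over all genes). Of all genes, 56.0% and 47.7% were above 0. The ratios of Pgm1 were small in both, at -0.02 and -0.03, as were those of Pygm (-0.04) and Phka1 (-0.11) with exercise. Both comparisons share the ischemia array. Against sham, 3 of the 4 breakdown genes were below 0 with ES but only 1 with exercise. Phkg2 and Pygb, outside the set, went the other way with ES against ischemia, as given below. The signs against ischemia held for all 4 genes under quantile normalization and cyclic loess. They also held under the mean of all probe sets, which is a check only where a gene has several. The changed floors and the removal of probe sets ending in _s, _x or _a could not alter these bright signals, so they were no check.

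Phkg1 gave 444 on sham, 489 on ischemia, 263 on ischemia + ES and 343 on ischemia + exercise, so both treated arrays were below both untreated ones. It was 1.86-fold lower with ES and 1.43-fold lower with exercise than with untreated ischemia. Phka1 gave 3852, 4316, 2845 and 3990 in that order, and the ES array stood below the rest, 1.52-fold lower than ischemia. Its other probe set, at 584, 764, 353 and 571, was 2.16-fold lower. The bright probe set of Pygm ran only from 6607 to 7414. Its other 2 probe sets gave 2680, 3277, 1656 and 2427, and 783, 1124, 425 and 715, and in ischemia + ES against ischemia they were 1.98-fold and 2.64-fold lower. The ES array was lowest on all 3 probe sets of Pygm and ischemia highest, and the dimmer the set the wider the gap. Pgm1 was at 6310 to 6557 on its bright probe set, while its other one gave 2244, 2556, 1857 and 2173.

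Taken by probe set, 8 of 8 from these 4 genes were lower in ischemia + ES than in ischemia, with log2 ratios from -1.40 to -0.02, where 47.5% of all 14072 probe sets above the floor on every array were lower. By 1.5-fold or more, 5 of the 8 were lower, against 6.79% of all. In other roles, 3 of 3 probe sets of Fbp2 and Gpd1 were also lower with ES than in ischemia. So were 4 of 7 from hexokinase to phosphofructokinase and 4 of 6 of the Pdk genes, but 0 of 11 from aldolase to enolase. The 8 breakdown probe sets were also lower in ischemia + exercise than in ischemia, from -0.65 to -0.03, where 52.1% of all were lower. They were higher in ischemia than in sham, from 0.06 to 0.52, where 7369 of all 14072 were higher, and 0 of the 8 were higher by 1.5-fold or more. All 3 comparisons share the ischemia array. Probe sets of 1 gene read the same transcript and are not independent. Among the 9 fast-fibre markers, 7 were above 0 in ischemia + ES against ischemia, and Pvalb and Myh4 were below. Pvalb, the calcium buffer of fast fibres, gave 9607, 11901, 6738 and 10059.6 on sham, ischemia, ischemia + ES and ischemia + exercise, 1.77-fold lower with ES than with untreated ischemia. Myh4, the myosin of the fastest fibres, gave 12841, 13178, 10366 and 13339. Both were lowest on ischemia + ES, and the part of the makeup of fast fibres in the glycogen values was not tested. As given above, ischemia + ES had the highest Gapdh 3′ to 5′ ratio and ischemia the lowest, and its part in these values was not tested.

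Of the synthesis genes, Gbe1, the glycogen branching enzyme, differed most. It gave 2676 on sham, 1803 on ischemia, 3313 on ischemia + ES and 3171 on ischemia + exercise, with ischemia alone well below the other three. It was 1.48-fold lower in ischemia than in sham, 1.84-fold higher with ES than with untreated ischemia and 1.76-fold higher with exercise. Gys1, the muscle glycogen synthase, gave 1716, 1614, 1943 and 1913, at most 1.20-fold apart. Gyg1, glycogenin, which starts a new glycogen particle, gave 6295, 5634, 6302 and 6575, and Ugp2, which makes the activated glucose that the synthase uses, gave 8424, 8548, 8826 and 9568. All 4 had ratios above 0 with ES and with exercise against ischemia, with medians of 0.21 and 0.23 in log2 ratio, where 56.0% and 47.7% of all genes were above 0. Under quantile normalization Ugp2 (-0.11) and Gyg1 (-0.02) were below 0 with ES.

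**Figure D5:**
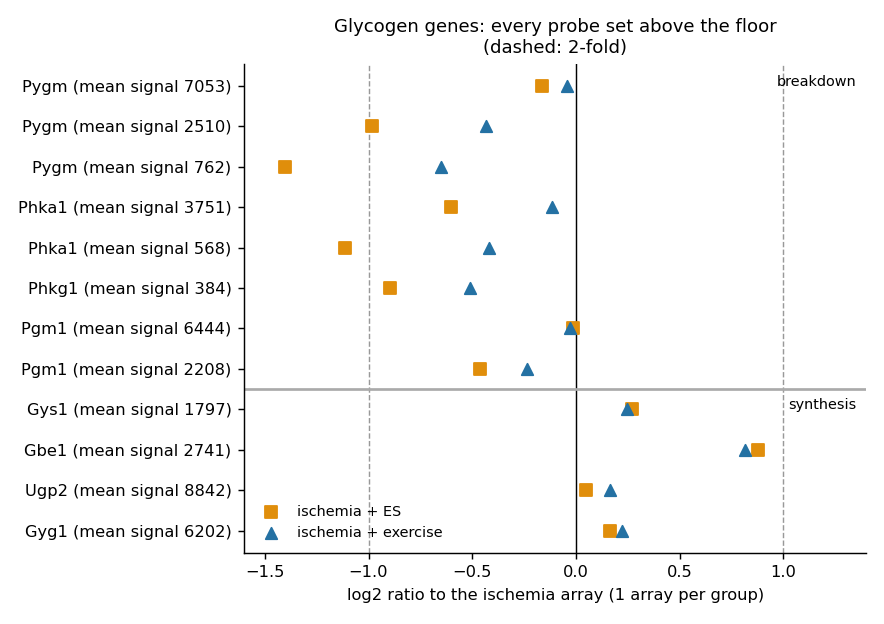
Log2 ratio to the ischemia array (x axis) on ischemia + ES (squares) and ischemia + exercise (triangles), 1 array per group, for every probe set above the floor on all arrays of 4 glycogen breakdown genes (top) and 4 synthesis genes (bottom), labelled with their mean signal; dashed lines mark 2-fold. All 8 breakdown probe sets lie left of 0 on both arrays, the farthest at -1.40, and the synthesis probe sets lie right of 0, with Gbe1 the farthest; under quantile normalization 2 of the 4 synthesis genes lie left of 0 on ischemia + ES.

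On the side branches, Fbp2, the muscle fructose bisphosphatase that runs the phosphofructokinase step backwards on the way to glycogen, gave 751 on sham, 1007 on ischemia, 706 on ischemia + ES and 585 on ischemia + exercise. Ischemia was the highest array and exercise the lowest, 1.72-fold apart. Gpd1, which makes glycerol phosphate and recycles cytosolic NADH, gave 5064, 5726, 4658 and 5350 (its lowest value with ES), and its dimmer probe set was 2.22-fold lower in ischemia + ES than in ischemia. Both genes were above 0 in log2 ratio in ischemia against sham and below 0 in both treatments against ischemia.

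The wider pathway was followed in 71 further genes for transport, control, other isoforms, glycogen, pyruvate shuttling and regulation, of which 61 had a probe set and 51 were compared. In ischemia against sham 0 of the 51 passed 2-fold, where 0.783% of all genes were that much higher and 0.862% lower. In ischemia + ES against ischemia 3 were higher (Ppp1r3b, Got1 and Pck2) and 1 lower (Pgm2l1), where 2.28% and 0.793% of all genes were. In ischemia + exercise against ischemia 1 was higher (Slc16a7), where 1.14% of all genes were. Between ES and exercise 1 was higher with ES (Pck2) and 1 lower (Slc16a7), where 2.95% and 1.1% of all genes were. Counts this small describe single genes, and Pck2 was among the 51 only because its signal on ischemia + ES was above the floor. Got1, the cytosolic aspartate aminotransferase of the malate-aspartate shuttle, gave 1739 on sham, 1346 on ischemia, 2705 on ischemia + ES and 1552 on ischemia + exercise. Ppp1r3b, which brings a phosphatase to glycogen, gave 38.9, 31.7, 76.5 and 44.6, a little above the floor. Pgm2l1, a relative of phosphoglucomutase, gave 395, 487, 230 and 405, with the ES array lowest.

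Slc16a7, a transporter of pyruvate and lactate, gave 37.5, 26.4, 31.5 and 65.4, with exercise highest and ischemia under the floor, so that the ratio of at least 2.17-fold is a bound. Pck2, the mitochondrial enzyme that makes phosphoenolpyruvate, was above the floor on ischemia + ES alone, at 60.6, so its ratios with ES are bounds. Short of the threshold, and named after their values were seen, were some genes close to those described above. Phkb, the remaining large subunit of phosphorylase kinase, gave 3736, 4813, 2424 and 3584, and was 1.99-fold lower with ES than with untreated ischemia. Phkg2, another catalytic subunit of that kinase, and Pygb, another glycogen phosphorylase, went the other way in that comparison, 1.26-fold and 1.38-fold higher. Slc16a1, the lactate transporter of oxidative fibres, gave 1499.9, 782, 1535 and 1292, which left ischemia lowest, as for Ldhb, at 1.92-fold below sham.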

How the data were processed

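The values deposited by the authors are linear intensities, 1 for each probe set. Per the submitters' processing notes they were made with MAS5, whose version is not stated there. The genome build behind the probe design is not given in the sources used here. The 2% trimmed mean was 150.1 on each array, so a difference in total mRNA cannot be seen. The platform annotation (2016) ties 20832 of the 31099 probe sets to 1 symbol, 436 to several and 9831 to none, and no gene was named from one with several. All 34 measured members were found by gene identifier in a RefSeq table (GRCr8).

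Signals were rescaled to a common trimmed mean, floored at the 50th percentile (30.1) and compared as log2 ratios with Python 3.11.15. The calculation was tested on simulated data with a single probe set per gene and with differences placed only in genes well above the floor. It thus did not cover the choice among probe sets or differences near the floor. The number of arrays, 1 per group, limits the precision of every value, and no test between groups was run.

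The members and lists were chosen with earlier results of these data known. The rule for named genes gave full values to members past 2-fold between any 2 arrays, to isoform pairs and to the extremes of each comparison. In the text this was widened to all members with more than a small difference. Pvalb and Myh4 were named among the markers after their values were seen. Pathway genes were named if past 2-fold, with the exceptions stated. Alternatives were quantile normalization, cyclic loess (limma 3.58.1), floors set lower (30th percentile) and higher (70th percentile), the mean of all probe sets, leaving out 1261 probe sets ending in _s, _x or _a, and 1.5-fold in place of 2-fold. Both treatments against sham were compared after seeing the data.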

Additional observations from a re-analysis of the deposited data

How the results depend on the processing

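The ratios of Ldhb in its 3 comparisons with the ischemia array, of Gapdhs in both treatments against ischemia and of Pdk4 in ischemia + ES against sham passed 2-fold under every alternative that gave a value. Those of Ldhb ran from -2.26 to -2.22 in ischemia against sham, from 1.80 to 1.81 with ES and from 2.28 to 2.30 with exercise. Ldhb has 1 probe set, far above each floor, so only quantile normalization and cyclic loess could move its ratios. Gapdhs also has 1 probe set, so the mean of all probe sets was no check on it. The changed floors could not move the bright Pdk4. With the mean of all probe sets, Pdk4 (exercise against sham) stood at 0.95, and Hk1 and Pdk3 at -0.22 and 0.54, values fixed by their other probe sets, which lie under the floor on all arrays. With a floor at the 30th percentile, the count of members past 2-fold in ischemia against sham was 2 in place of 1, since Gapdhs then stood at -1.37, and Pfkl was past 2-fold with ES against ischemia (1.05) and against sham with ES (1.80) and exercise (1.30). With a floor at the 70th percentile 28 members were left, and the count was 1 with ES against ischemia, 1 with exercise against ischemia and 0 for ES against exercise, where the mean of all probe sets also gave 0, through Pdk3 alone. At 1.5-fold the counts were 4 (ischemia against sham), 6 (ES), 6 (exercise) and 4 (ES against exercise). The median log2 ratio of the members moved by over 0.1 once, to 0.0058 under quantile normalization in ischemia + ES against ischemia. Dim genes near the floor and the single array per group limit all of these values. No paired analysis was possible because each group has 1 array.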
